A study of Mus musculus with 4 samples.

Results

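The small subunit processome and the factors that mature the 40S ribosomal subunit were examined as a set of 46 named genes, all of which had at least 1 probe set, out of 18194 genes measured. Members were all probe sets whose platform gene symbol was one of these names, 90 probe sets in all, averaged per gene. The cells were primary mouse embryonic fibroblasts (MEFs), cultured from minced embryo torsos after the head and red organs had been removed. They were of genotype Pf1 -/- (KO, lines 2 and 4) and of genotype Pf+/+ (WT, lines 5 and 6). Phf12 encodes Pf1, a protein with PHD fingers that works with Sin3 corepressor complexes, and the study's title asks about its part in nucleolar integrity. Each of the 4 lines was hybridised once, at passage 2 to 3, from cultures kept at 6% oxygen. Embryos were of day 13.5 or 14.5, and neither day nor passage was assigned to lines. The labels describe neither the deleted part of Pf1 nor the strain, and they leave it unsaid whether the lines were from separate embryos. The p-values therefore measure only the spread between lines, which may be technical.

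Ribosomal RNA is transcribed in the nucleolus as 1 long precursor, and the part that becomes 18S rRNA is folded, cut and modified inside the small subunit processome. The UTP-A and UTP-B subcomplexes bind the precursor as it emerges, the U3 small nucleolar ribonucleoprotein (snoRNP) pairs with it, and further proteins, nucleases and GTPases join. The particle then loses most of these factors and leaves the nucleus as a pre-40S subunit, whose last assembly factors come off in the cytoplasm. These proteins are made in all growing cells, and fibroblasts raise them when they enter growth.

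The deposited values had been centred on the median of the 4 arrays for each probe set. The middle pair of lines is therefore equal and opposite wherever a gene has 1 probe set, and signal levels cannot be compared between genes. For the same reason it could not be judged from levels whether a transcript, or a marker of fibroblasts, was present. All line values below are log2 values relative to that median, averaged over the probe sets of a gene. A difference is the log2 value of KO minus WT, with 2 lines per genotype, and SE is its standard error in limma, the linear model used throughout.

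As a check of the labels, the Phf12 probe set 1434922_at stood at -0.37 and -0.41 in KO lines 2 and 4, against 0.56 and 0.37 in WT lines 5 and 6 (-0.86 ± 0.109 SE, limma adjusted p = 0.0213). The other, 1453579_at, had a difference of 0.012 (limma adjusted p = 0.965). Without the position of the deletion, neither probe set settles the check.

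Of the 46 members, 21 rose in KO cells, 1 fell and 24 did not pass the test (limma, Benjamini-Hochberg adjusted p under 0.05 over all genes). Across all genes 5.21% were called higher and 6.95% lower. The called increases ran from 0.38 (Fcf1, 1.3-fold) to 1.40 (Esf1, 2.64-fold), with 15 of the 21 at 1.5-fold or more and 4 at 2-fold or more. The median difference over all 46 members was 0.47, against -0.0027 over all genes, and 30 members lay in the highest 10% of all genes by difference. With any 1 line left out the calls of the members did not hold, and most or all calls over all genes were lost too. The median difference of the 46 members then stayed between 0.38 and 0.57.

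Both KO lines lay above both WT lines for 41 members and below them for 3, and the genotypes overlapped for 2 (Rrp7a and Rcl1). Over all genes the shares were 28.7% above and 29.5% below, so a lack of overlap is common for single genes. Relative to the WT mean of each gene, the members' median was 0.48 and 0.43 in KO lines 2 and 4, against -0.11 and 0.11 in WT lines 5 and 6. The WT lines were not equal: line 5 was below line 6 for 42 of 46 members (91.3%, against 51.5% of all genes), and it was the lowest of the 4 lines for 40 members (30.4% of all genes were lowest there). The median gap of line 5 minus line 6 was -0.22 (-0.0075 over all genes). KO line 2 minus KO line 4 had a median of 0.044 (0.0058 over all genes). Line 2 was the highest line for 27 members and line 4 for 15, and the same shares of all genes were not counted.

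**Figure D1:**
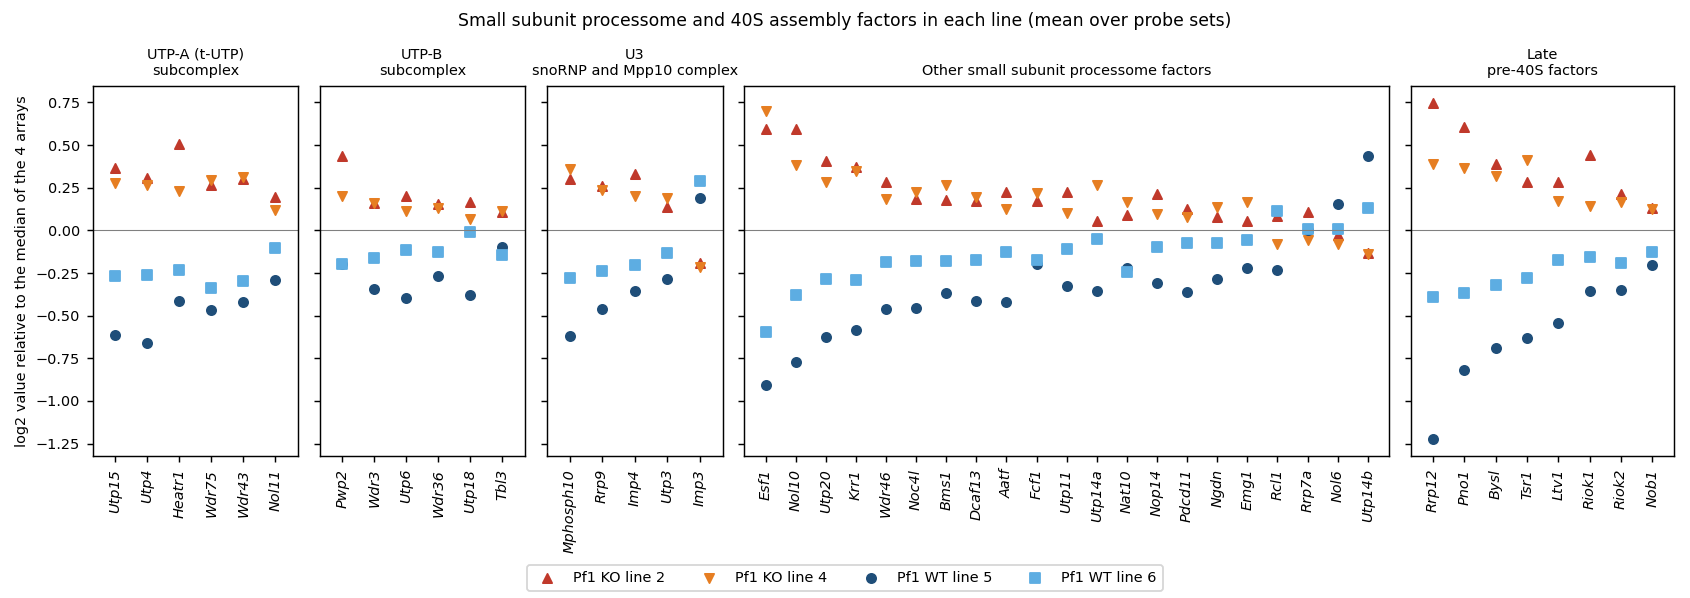
Log2 value of each member relative to the median of the 4 arrays (vertical axis) in KO lines 2 and 4 (triangles) and WT lines 5 and 6 (circles and squares), averaged over probe sets, in panels by role and ordered by difference. Both KO lines lie above both WT lines for 41 of 46 members, WT line 5 is the lowest point for 40, and Imp3, Utp14b and Nol6 run the other way.

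Promoter sequence was set beside these values as a description, and its part in the members' increase was not tested. The RefSeq (GRCm38.p6) promoter sequences used here cover 38 of the 46 members with 1 start site each. Promoters of Dcaf13, Fcf1, Nol6, Rrp12, Tbl3, Utp11, Utp6 and Wdr36 were not analysed here. The 250 bases before each start were searched on both strands for 5 motifs, of which the others beside the E-box were chosen with the results known. The E-box CACGTG, which Myc and its partners can bind, was in 7 of 38 member promoters (18.4%), against 8.73% of the promoters of all measured genes. It was in 2 of 19 members that rose and in 5 of 18 that did not pass. The ETS motif CCGGAAGT was in 10 of 38 (26.3%, against 4.95%), 6 of them among members that rose and 4 among those that did not pass. The cyclic AMP response element TGACGTCA was in 1 (2.63%, against 2.5%), the Nrf1 core GCGCATGC in 2 (5.26%, against 3.96%) and TATAAA in 2 (5.26%, against 10.5%). These shares are descriptions of letters in a window, not of binding.

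The promoters below are those of Imp4 and Wdr46, the members that rose and hold an E-box, and of Esf1 and Wdr75, the members with the smallest p among those that rose. They lie at chr1:34439579-34439828, plus strand (Imp4), chr17:33940473-33940722, plus strand (Wdr46), chr2:140170559-140170808, minus strand (Esf1) and chr1:45794916-45795165, plus strand (Wdr75). Each runs 5′ to 3′ up to the base before the RefSeq start, with capitals for the E-box, the ETS motif and the Nrf1 core on either strand.
Imp4: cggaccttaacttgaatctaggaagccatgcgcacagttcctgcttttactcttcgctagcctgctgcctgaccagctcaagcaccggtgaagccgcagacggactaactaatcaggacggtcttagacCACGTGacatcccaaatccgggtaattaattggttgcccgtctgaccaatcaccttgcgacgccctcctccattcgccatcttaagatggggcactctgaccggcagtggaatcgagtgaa
Wdr46: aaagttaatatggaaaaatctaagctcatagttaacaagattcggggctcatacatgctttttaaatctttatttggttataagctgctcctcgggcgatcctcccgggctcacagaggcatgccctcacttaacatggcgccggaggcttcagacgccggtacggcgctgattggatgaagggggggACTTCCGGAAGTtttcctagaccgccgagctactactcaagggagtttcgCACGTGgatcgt
Esf1: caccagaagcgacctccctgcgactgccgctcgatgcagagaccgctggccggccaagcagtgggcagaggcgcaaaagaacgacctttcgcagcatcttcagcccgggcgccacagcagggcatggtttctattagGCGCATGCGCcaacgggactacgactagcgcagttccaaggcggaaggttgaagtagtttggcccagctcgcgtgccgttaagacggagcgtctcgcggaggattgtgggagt
Wdr75: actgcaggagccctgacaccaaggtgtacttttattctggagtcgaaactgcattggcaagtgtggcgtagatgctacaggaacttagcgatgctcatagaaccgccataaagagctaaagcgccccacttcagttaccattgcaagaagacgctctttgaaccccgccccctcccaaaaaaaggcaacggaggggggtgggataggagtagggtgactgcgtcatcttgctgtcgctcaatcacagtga
In Imp4 the E-box begins 121 bases before the start. In Wdr46 it begins 12 bases before the start, and 2 overlapping ETS matches, 1 on each strand, begin 62 and 58 bases before the start. The RefSeq span of the Wdr46 gene begins 89 bases before the start site used here, so these matches lie within that span, and for Wdr75 it begins 13 bases before. Esf1, with the largest difference, holds 2 overlapping Nrf1 core matches and no E-box, and Wdr75 holds none of these 3 motifs.

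The UTP-A subcomplex, which binds the start of the precursor and is also needed for its transcription, rose in 5 of 6 members, with a median difference of 0.69. Utp15, a WD-repeat subunit, stood at 0.36 and 0.28 in KO lines 2 and 4, against -0.61 and -0.27 in WT lines 5 and 6, and rose 1.7-fold (0.76 ± 0.137 SE, limma adjusted p = 0.0333). Utp4, whose human counterpart is mutated in a childhood cirrhosis, stood at 0.31 and 0.26 in KO lines 2 and 4, against -0.66 and -0.26 in WT lines 5 and 6 and rose 1.68-fold (0.75 ± 0.148 SE, limma adjusted p = 0.0398). In both genes WT line 5 was clearly the lowest line. Heatr1, the large helical-repeat protein of the complex, stood at 0.51 and 0.23 in KO lines 2 and 4, against -0.41 and -0.23 in WT lines 5 and 6 (0.69 ± 0.13 SE, limma adjusted p = 0.0364). Wdr75 stood at 0.26 and 0.29 in KO lines 2 and 4, against -0.47 and -0.34 in WT lines 5 and 6 and rose 1.61-fold (0.68 ± 0.0886 SE, limma adjusted p = 0.0192). The KO lines of Wdr75 were nearly equal, and it had the smallest p of the group. Wdr43, the mouse counterpart of yeast Utp5, stood at 0.30 and 0.31 in KO lines 2 and 4, against -0.42 and -0.30 in WT lines 5 and 6 (0.66 ± 0.0872 SE, limma adjusted p = 0.0195). Nol11, an animal-specific partner of Utp4, did not pass, at 0.20 and 0.12 in KO lines 2 and 4, against -0.29 and -0.10 in WT lines 5 and 6 (0.35 ± 0.101 SE, limma adjusted p = 0.0871). Its groups did not overlap.

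The UTP-B subcomplex, a set of mostly WD-repeat proteins that binds the precursor next to UTP-A, had 1 of 6 members called. All 6 differences were positive, with a median of 0.38. Pwp2 stood at 0.43 and 0.20 in KO lines 2 and 4, against -0.20 and -0.20 in WT lines 5 and 6 and rose 1.43-fold (0.52 ± 0.108 SE, limma adjusted p = 0.0447). Its WT lines were nearly equal and its KO line 2 was the outlying line. Pwp2 kept its call in 4 of 6 alternatives with all lines, and lost it with array weights and with the most variable probe set of each gene. With quantile normalization 2 UTP-B members were called. Wdr3 stood at 0.16 and 0.16 in KO lines 2 and 4, against -0.35 and -0.16 in WT lines 5 and 6 (0.41 ± 0.0978 SE, limma adjusted p = 0.0576) and Wdr36 at 0.16 and 0.13 in KO lines 2 and 4, against -0.27 and -0.13 in WT lines 5 and 6 (0.34 ± 0.0908 SE, limma adjusted p = 0.0751), both without overlap of the genotypes. Utp6, Utp18 and Tbl3 had differences from 0.23 to 0.41, with limma adjusted p between 0.0944 and 0.24. The medians of UTP-A and UTP-B were not tested against each other.

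Among the U3 snoRNP protein Rrp9 and the proteins of the Mpp10 complex, 3 of 5 members rose and 1 fell. Mphosph10, the scaffold that holds Imp3 and Imp4, stood at 0.30 and 0.36 in KO lines 2 and 4, against -0.62 and -0.28 in WT lines 5 and 6 and rose 1.72-fold (0.78 ± 0.134 SE, limma adjusted p = 0.0313). Rrp9, which binds U3 itself, stood at 0.26 and 0.24 in KO lines 2 and 4, against -0.46 and -0.24 in WT lines 5 and 6 and rose 1.51-fold (0.60 ± 0.105 SE, limma adjusted p = 0.0319). Imp4, whose yeast counterpart helps U3 pair with the precursor, stood at 0.33 and 0.20 in KO lines 2 and 4, against -0.36 and -0.20 in WT lines 5 and 6 (0.54 ± 0.1 SE, limma adjusted p = 0.0348). For all 3 genes both KO lines were above both WT lines. Imp3, the partner of Imp4 in the same complex, went the other way, at -0.19 and -0.22 in KO lines 2 and 4, against 0.19 and 0.29 in WT lines 5 and 6. It was 1.36-fold lower in KO cells (-0.44 ± 0.0848 SE, limma adjusted p = 0.0373), without overlap and with KO lines nearly equal. Imp3 has a single probe set, which missed the threshold when all probe sets were tested (-0.44 ± 0.095 SE, limma adjusted p = 0.0541). Utp3, the counterpart of yeast Sas10, stood at 0.13 and 0.19 in KO lines 2 and 4, against -0.29 and -0.13 in WT lines 5 and 6 (0.37 ± 0.0934 SE, limma adjusted p = 0.0656).

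The other processome factors formed the largest group, with 7 of 21 members called, all higher, and a median difference of 0.38. Esf1, a nucleolar protein needed for 18S rRNA in yeast, stood at 0.60 and 0.70 in KO lines 2 and 4, against -0.91 and -0.60 in WT lines 5 and 6 and rose 2.64-fold (1.40 ± 0.129 SE, limma adjusted p = 0.014). It had the largest difference and the smallest p of all 46 members, and its 3 probe sets were each called, at 1.21, 1.37 and 1.62. Nol10, the counterpart of yeast Enp2, stood at 0.60 and 0.38 in KO lines 2 and 4, against -0.77 and -0.38 in WT lines 5 and 6 and rose 2.09-fold (1.07 ± 0.161 SE, limma adjusted p = 0.025). Utp20, a very large helical-repeat protein, stood at 0.41 and 0.29 in KO lines 2 and 4, against -0.62 and -0.29 in WT lines 5 and 6 (0.80 ± 0.137 SE, limma adjusted p = 0.0311). Krr1, an RNA-binding protein with KH domains, stood at 0.37 and 0.35 in KO lines 2 and 4, against -0.58 and -0.29 in WT lines 5 and 6 (0.80 ± 0.121 SE, limma adjusted p = 0.0252). In these 4 genes the lowest KO line was at least 0.571 above the highest WT line.

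Smaller increases were called for Wdr46, Bms1 and Fcf1. Wdr46, the counterpart of yeast Utp7, stood at 0.29 and 0.18 in KO lines 2 and 4, against -0.46 and -0.18 in WT lines 5 and 6 (0.56 ± 0.122 SE, limma adjusted p = 0.0485). Bms1, the GTPase of the processome, stood at 0.18 and 0.27 in KO lines 2 and 4, against -0.37 and -0.18 in WT lines 5 and 6 (0.50 ± 0.102 SE, limma adjusted p = 0.0427). Fcf1, the nuclease whose yeast counterpart cuts at the start of 18S rRNA, stood at 0.17 and 0.22 in KO lines 2 and 4, against -0.20 and -0.17 in WT lines 5 and 6 and rose 1.3-fold (0.38 ± 0.0801 SE, limma adjusted p = 0.0447). Wdr46 and Fcf1 each kept their call in 4 of 6 alternatives with all lines, and Bms1 in 5. Rcl1, the partner of Bms1, overlapped between the genotypes, at 0.082 and -0.082 in KO lines 2 and 4, against -0.23 and 0.12 in WT lines 5 and 6 (0.058 ± 0.144 SE, limma adjusted p = 0.849).

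The remaining members of the group did not pass. Noc4l, which forms a pair with Nop14, stood at 0.19 and 0.22 in KO lines 2 and 4, against -0.45 and -0.18 in WT lines 5 and 6 (0.52 ± 0.118 SE, limma adjusted p = 0.0528). Nat10, the enzyme that acetylates 18S rRNA, stood at 0.091 and 0.16 in KO lines 2 and 4, against -0.22 and -0.24 in WT lines 5 and 6 (0.36 ± 0.0821 SE, limma adjusted p = 0.0537). Dcaf13, Aatf, Utp11, Nop14, Ngdn, Pdcd11, Utp14a and Emg1 had positive differences between 0.25 and 0.48, without overlap of the genotypes, and limma adjusted p between 0.054 and 0.183. Aatf and Ngdn are known in human cells to form a complex with Nol10. Rrp7a, whose yeast counterpart is with that of Nol6 part of the UTP-C module, had a difference of 0.017 ± 0.0938 SE (limma adjusted p = 0.939), with a 95% interval of -0.22 to 0.26.

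Negative differences that did not pass were those of Utp14b and Nol6. Utp14b, a retrogene copy of Utp14a that serves male germ cells in the mouse, stood at -0.13 and -0.14 in KO lines 2 and 4, against 0.44 and 0.13 in WT lines 5 and 6 (-0.42 ± 0.124 SE, limma adjusted p = 0.0943). Its source gene Utp14a, which activates a helicase that frees U3, stood at 0.053 and 0.27 in KO lines 2 and 4, against -0.35 and -0.053 in WT lines 5 and 6 (0.36 ± 0.14 SE, limma adjusted p = 0.165). The copies thus differed in sign, each without overlap and neither called, and cross-hybridisation between them was not tested. Nol6, the counterpart of yeast Utp22, stood at -0.029 and -0.077 in KO lines 2 and 4, against 0.16 and 0.0059 in WT lines 5 and 6 (-0.13 ± 0.093 SE, limma adjusted p = 0.417), and its 2 probe sets were both slightly negative.

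Among the late pre-40S factors, 5 of 8 members rose and all 8 differences were positive, with a median of 0.69. Rrp12, which serves export of the subunits, stood at 0.75 and 0.39 in KO lines 2 and 4, against -1.22 and -0.39 in WT lines 5 and 6 and rose 2.59-fold (1.38 ± 0.298 SE, limma adjusted p = 0.048). Its SE was the largest of all 46 members, and WT line 5 lay far below WT line 6. Without WT line 5 the difference was 0.96, and without WT line 6 it was 1.79. Pno1, an RNA-binding partner of Nob1, stood at 0.61 and 0.36 in KO lines 2 and 4, against -0.82 and -0.36 in WT lines 5 and 6 and rose 2.11-fold (1.08 ± 0.18 SE, limma adjusted p = 0.0292). Bysl, the counterpart of yeast Enp1, stood at 0.39 and 0.32 in KO lines 2 and 4, against -0.69 and -0.32 in WT lines 5 and 6 and rose 1.81-fold (0.86 ± 0.142 SE, limma adjusted p = 0.0286). Tsr1, a GTPase-like protein that blocks early joining of the large subunit, stood at 0.28 and 0.41 in KO lines 2 and 4, against -0.63 and -0.28 in WT lines 5 and 6 (0.80 ± 0.141 SE, limma adjusted p = 0.0319). For these 4 genes the KO lines were well apart from the WT lines and WT line 5 was the lowest.

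The atypical kinases of the last steps had smaller differences. Riok2 stood at 0.21 and 0.17 in KO lines 2 and 4, against -0.35 and -0.19 in WT lines 5 and 6 (0.46 ± 0.0942 SE, limma adjusted p = 0.042), and rose. Riok1 stood at 0.44 and 0.14 in KO lines 2 and 4, against -0.35 and -0.16 in WT lines 5 and 6 (0.55 ± 0.138 SE, limma adjusted p = 0.0662) and Ltv1, which is released by phosphorylation, at 0.29 and 0.17 in KO lines 2 and 4, against -0.54 and -0.17 in WT lines 5 and 6 (0.59 ± 0.146 SE, limma adjusted p = 0.0648). Neither passed. Their genotypes did not overlap, with KO above WT as in 28.7% of all genes. Nob1, the nuclease that makes the final 3′ end of 18S rRNA, had the smallest difference of the group, 0.29 ± 0.0817 SE (limma adjusted p = 0.0821).

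**Figure D2:**
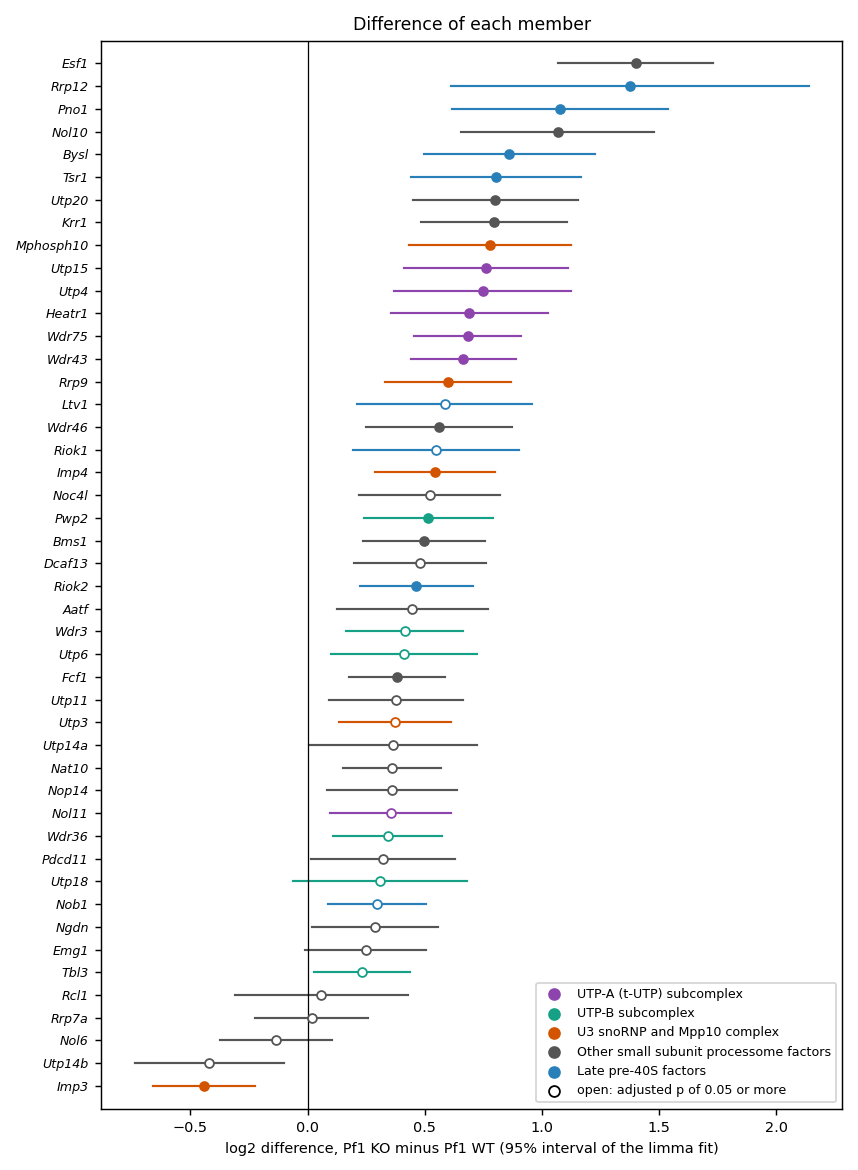
Log2 difference, KO minus WT, of each of the 46 members (horizontal axis) with the 95% interval of the limma fit, coloured by role. Filled points passed the test (21 higher, 1 lower) and open points did not, and the largest differences are those of Esf1, Rrp12, Pno1 and Nol10.

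Probe sets of 1 gene did not always give the same difference. When all 45037 probe sets other than controls were fitted, 30 of the members' 90 probe sets were called higher and 0 lower (1 lower with quantile normalization), with 82 differences positive and 8 negative. Over all probe sets 3.92% were called higher and 4.40% lower. Of 26 members with more than 1 probe set, all probe sets were called for 3 (Esf1, Wdr43 and Tsr1), some for 14 and none for 9. For 4 members (Riok2, Rrp7a, Tbl3 and Utp18) the signs differed between probe sets. Heatr1 ranged from 0.088 for 1452419_at to 1.28 for 1424522_at (limma adjusted p = 0.018). Riok2 ranged from -0.060 for 1445384_at to 0.94 for 1423481_at (limma adjusted p = 0.0172).

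Calls on gene means and on single probe sets therefore differed for some members. Tbl3, Utp11, Riok1 and Noc4l were not called on their means but each had a called probe set, for example 1415750_at of Tbl3 (0.65 ± 0.106 SE, limma adjusted p = 0.0315) and 1453162_at of Utp11 (0.78 ± 0.113 SE, limma adjusted p = 0.0254). Of 9 called members with a single probe set, 5 were also called in the fit over all probe sets. Imp3, Rrp12, Fcf1 and Pwp2 were not, at limma adjusted p between 0.0541 and 0.0682. Without signal levels it was not determined which probe sets were above background.

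**Figure D3:**
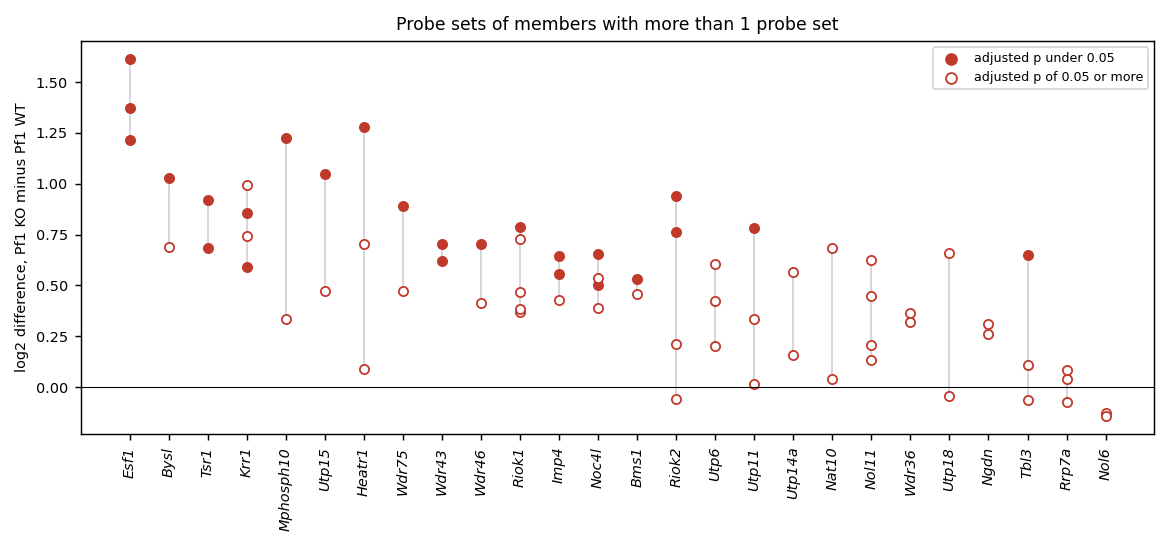
Log2 difference, KO minus WT, of every probe set (points) of the 26 members with more than 1 probe set. Filled points passed the test over all probe sets. Esf1, Wdr43 and Tsr1 have only filled points, and Heatr1, Mphosph10 and Riok2 span the widest ranges.

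Other genes of the same pathway were set beside the members by counts and medians. Of 29 measured further factors of 18S rRNA and the 40S subunit, 10 rose and 0 fell (0 lower also at an unadjusted p under 0.05), with a median difference of 0.36. Nop58, a core box C/D protein that U3 also carries, stood at 0.57 and 0.52 in KO lines 2 and 4, against -0.92 and -0.52 in WT lines 5 and 6 (1.27 ± 0.148 SE, limma adjusted p = 0.0168), and Abt1 rose as well (0.72 ± 0.0973 SE, limma adjusted p = 0.0202). Of 54 large subunit assembly factors, 25 rose and 1 fell, with a median of 0.55. The shares of members that rose were 45.7% for the 46 small subunit factors and 46.3% for the large subunit factors, so the increase was not shown to be particular to the small subunit. Nol8 (1.45 ± 0.12 SE, limma adjusted p = 0.0124) and Ccdc86 (1.33 ± 0.102 SE, limma adjusted p = 0.0116) had the smallest p there.

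The measured genes for the proteins of the 40S subunit itself did not share the shift. Of 33 listed small subunit ribosomal protein genes, 23 were measured. Of these 23, 0 were called by limma, and the median was -0.028, with 17 of 23 differences negative. Before adjustment 2 of them had a p under 0.05, both higher. Rps27l, a p53-inducible relative of Rps27, had the smallest p (0.27 ± 0.0795 SE, limma adjusted p = 0.0929). The difference between the assembly factors and the ribosomal proteins was not tested. Of 16 genes of RNA polymerase I and its factors, which make the precursor, 1 rose and 0 fell. Their median difference was 0.29, or 0.17 without WT line 5, and 13 of the 16 differences were positive. At an unadjusted p under 0.05, 8 were higher and 0 lower, against 2603 of all 18194 genes higher. Both KO lines lay above both WT lines for 11 of the 16 (68.8%, against 28.7% of all genes). The share that rose, 6.25%, was near that of all genes (5.21%). The gene that rose was Twistnb, the polymerase subunit now named Polr1f (0.57 ± 0.114 SE, limma adjusted p = 0.0401). With the most variable probe set of each gene 4 of the 16 were called, and with quantile normalization 3.

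**Figure D4:**
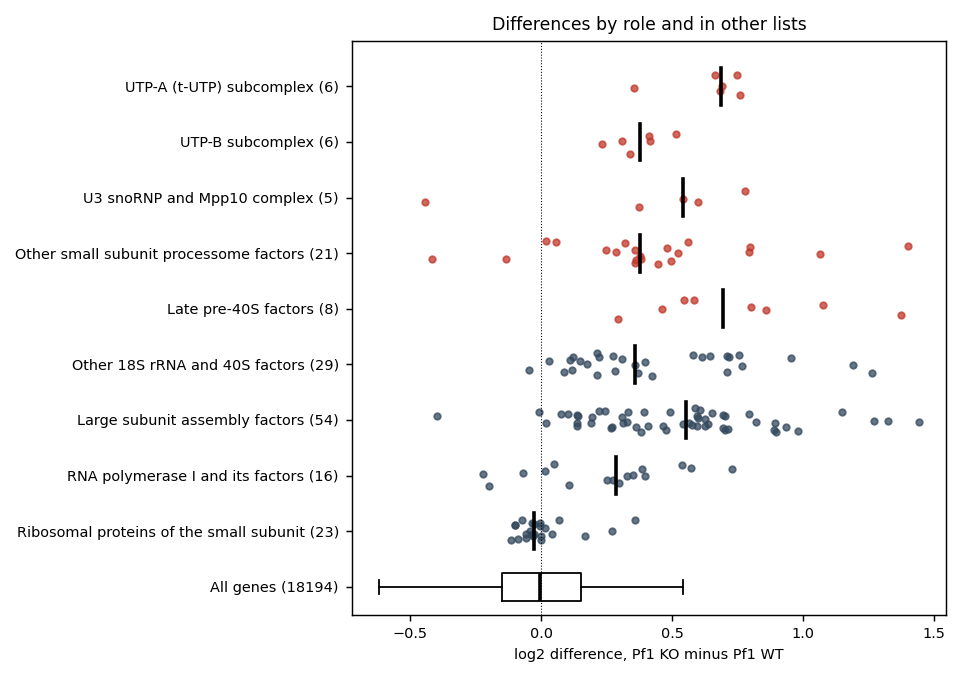
Log2 difference, KO minus WT, of single genes (points) with the median of each list (bars), for the 5 role groups of the members (red) and for 4 other lists (dark). The box shows all 18194 genes with the quartiles and whiskers at the 5th and 95th percentiles. Late pre-40S factors (0.69) and UTP-A (0.69) have the highest medians among the roles, and small subunit ribosomal proteins centre on -0.028.

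Genes known to move with ribosome production were examined beside the members. Myc, the transcription factor best known for driving these genes, stood at -0.043 and -0.00036 in KO lines 2 and 4, against 0.00036 and 0.13 in WT lines 5 and 6 (-0.088 ± 0.0896 SE, limma adjusted p = 0.596). Of the 11 genes of its network, 1 rose and 1 fell, 9 differences were negative and the median was -0.19. The share that rose was 9.09%, against 5.21% of all genes, and 6.95% of all genes fell. Both KO lines lay below both WT lines for 8 of the 11 and above them for 1. Over all genes these shares were 29.5% and 28.7%. Max, the dimerisation partner, rose (0.99 ± 0.16 SE, limma adjusted p = 0.0274) and Mxi1, a repressor that competes for Max and recruits Sin3, fell (-0.94 ± 0.139 SE, limma adjusted p = 0.0241). Max stood at 0.76 and 0.35 in KO lines 2 and 4, against -0.52 and -0.35 in WT lines 5 and 6, and Mxi1 at -0.69 and -0.34 in KO lines 2 and 4, against 0.48 and 0.36 in WT lines 5 and 6. Neither gene overlapped between the genotypes. Of 19 proliferation genes, limma called 0, with a median difference of 0.25. At an unadjusted p under 0.05, 7 were higher and 1 was lower, against 2603 and 2765 of all 18194 genes. Both KO lines lay above both WT lines for 12 of the 19 (63.2%, against 28.7% of all genes), and 15 differences were positive. The smallest p were those of Mcm4, a subunit of the replicative helicase (0.69 ± 0.156 SE, limma adjusted p = 0.0536), and Rrm2, a subunit of ribonucleotide reductase (1.14 ± 0.264 SE, limma adjusted p = 0.0549). Over the 6 alternatives with all lines 0 to 3 were called higher, with 3 under quantile normalization and 2 with array weights. The median was 0.13 without WT line 5 and 0.14 without KO line 4. Relative to the WT mean their median was 0.14 and 0.28 in KO lines 2 and 4, against -0.15 and 0.15 in WT lines 5 and 6, so these genes too were lower in WT line 5 than in WT line 6. The part of either list in the members' increase was not tested.

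Marker lists also differed between the genotypes. Of 12 fibroblast markers, 8 fell in KO cells, among them the collagen genes Col6a1 (-1.30 ± 0.14 SE, limma adjusted p = 0.016) and Col1a1 (-0.96 ± 0.129 SE, limma adjusted p = 0.0202), and the median of all 12, none of them positive, was -0.91. Of 10 epithelial markers, 4 rose and 1 fell (median 0.43). Krt8, a keratin of simple epithelia (2.42 ± 0.21 SE, limma adjusted p = 0.0132), and Perp, a protein of cell junctions (2.52 ± 0.304 SE, limma adjusted p = 0.018), had the smallest p of these, and ranked 7 and 4 of all 18194 genes by difference. The 10 macrophage markers had 0 calls (0 in either direction also at an unadjusted p under 0.05), although all 10 differences were positive, with a median of 0.44. The genotypes overlapped for 9 of them, and medians relative to the WT mean were 0.043 and 0.89 in KO lines 2 and 4, against 0.87 and -0.87 in WT lines 5 and 6. Without WT line 6 the macrophage median was -0.26, and without WT line 5 it was 1.31. Endothelial, erythroid, skeletal muscle and neural markers had medians between -0.053 and 0.22, with at most 1 gene called in each direction. Single genes of these lists had large differences. The neural marker Fabp7, a fatty acid binding protein of radial glia, had the largest increase of all 18194 genes (3.31 ± 0.304 SE, limma adjusted p = 0.014), and Nes, an intermediate filament of neural precursors, did not pass (0.95 ± 0.232 SE, limma adjusted p = 0.0614), although 2 neural markers were called in 4 of 6 alternatives with all lines. The endothelial marker Emcn rose (1.85 ± 0.112 SE, limma adjusted p = 0.0103) and ranked 18, while Tek, the angiopoietin receptor, fell (-0.72 ± 0.147 SE, limma adjusted p = 0.0426). Of the muscle markers, the intermediate filament gene Des rose (0.62 ± 0.0896 SE, limma adjusted p = 0.0231). In bulk RNA fewer cells of a type and less RNA per cell cannot be told apart, and the part of cell composition in the members' increase was not tested.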

How the data were processed

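Total RNA of 4 MEF lines was labelled with biotin by a 3′ in vitro transcription kit, per the labels' protocols. The authors' deposited table holds log2 values which the submitters' processing notes credit to Affymetrix Expression Console and RMA. Those notes give no version, and the log base was taken from RMA itself. Each of the 45101 probe sets (100%) had a median over the arrays of 0 within 1e-06, a centring that the labels do not describe. It leaves differences between arrays and no signal level, so no filter on dim probe sets was applied. The series text names the 430A 2.0 array, whereas the probe sets matched the annotation of its larger sister array.

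The 34958 probe sets with 1 gene symbol were averaged per gene (18194 genes). The 932 probe sets with several genes did not enter. KO minus WT was fitted without covariates in limma 3.58.1 (lmFit, eBayes; R 4.3.3; with 2 residual and 3.04 prior degrees of freedom), with Benjamini-Hochberg adjustment over all genes. A second fit used all probe sets except 64 controls. The script was tested on simulated data of independent genes, which does not cover genes that vary together. The number of arrays limits the precision.

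Line values were to be given for called members, members with a negative difference and the 2 uncalled members of smallest p in each role group. Other lists were to be named by at most 2 genes of smallest p, beside Myc, which was named after its value was seen. The members and lists were chosen with earlier results of these data known. Lists were matched by symbol, with older symbols for Polr1f, Polr1g, Polr1h and Slx9. Alternatives were other rules for probe sets, normalizations and variance models, and leaving out each line.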

Additional observations from a re-analysis of the deposited data

How the results depend on the processing

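With all 4 lines, the number of members that rose was 18 to 25 over 6 alternatives (21 as reported), 41 members lay without overlap above WT in each, and 15 of the 22 called members kept their call in all 6. The median difference moved to 0.64 with the most variable probe set of each gene, under which the number called lower was 0. Leaving out 1 line, which leaves 1 residual degree of freedom, gave 0 members called higher (range 0 to 0), 0 called lower (0 to 0), 0 member probe sets called (0 to 0), and medians of 0.38 to 0.57. The number of members with each KO line above each WT line was then 41 to 42, a count that cannot fall when a line is removed and so says nothing of stability. The number of genes called in all then fell to 0 higher and 0 lower without KO line 2 or WT line 6, to 0 and 1 without WT line 5, and to 87 and 234 without KO line 4. The sign turned for Rrp7a (-0.065) and Rcl1 (-0.023) without KO line 2, for Rcl1 without WT line 5 (-0.12) and for the macrophage marker median without WT line 6 (-0.26), none of which was called. Over the lines left out, the ranges were -0.065 to 0.099 (Rrp7a), -0.12 to 0.23 (Rcl1) and -0.26 to 1.31 (macrophage markers). The filter on dim probe sets was not run, because the table holds no levels. The labels give all 4 lines the number 7706 and pair no KO line with a WT line, so no paired analysis was possible. No signal over background was used here.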

Other observations

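The array carries 3 control probe sets for 18S rRNA itself, the product of the pathway. The labelling kit primes from poly(A) tails, so this signal is not a measure of the amount of ribosomal RNA. They averaged 0.64 and 0.070 in KO lines 2 and 4, against -0.070 and -0.77 in WT lines 5 and 6, relative to their medians. In each of the 3 both KO lines lay above both WT lines, the direction of most members, and the part of labelling or RNA quality in the members' increase was not tested. WT line 6 was the lowest line for these probe sets, whereas WT line 5 was the lowest for 40 of 46 members.

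Of the members, 6 lie on chromosome 11, as Phf12 does (Nol11, Utp6, Utp18, Aatf, Pno1 and Tsr1). Pno1 and Tsr1 rose and the other 4 did not pass.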
